A study of Xenopus laevis with 17 samples.

Results

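The genes described here are those whose names mark them as sperm, testis, EF-hand, IQ-motif, armadillo or MORN proteins. They were all gene models of the frog Xenopus laevis whose symbol begins with SPATA, TEX, TSGA, ODF, MORN, EFCAB or ARMC and a number, or with IQC and a letter. The rule sets ODF2 aside, and no model of that name was among the files, whereas ODF2L fits the rule and was kept. It gave 84 models with 59 symbols among 24383 gene models. SPATA contributed 20 models, TEX 17, EFCAB 16, ARMC 12, IQC 9, MORN 6, ODF 3 and TSGA 1. The rule used names only and no measured value.

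All samples were animal caps, the ectoderm taken from the top of the embryo at stage 10. The caps used for RNA were given an inducible Multicilin, the protein that switches ectoderm to the multiciliated fate. The control caps received MCIDAS-HGR mRNA alone (Multicilin fused to the human glucocorticoid receptor, n = 3) and were re-used from an earlier study. New caps received Multicilin mRNA with Cas9 protein and a foxj1 guide RNA (foxj1 CRISPR, n = 2), with Cas9 protein and a foxn4 guide RNA (foxn4 CRISPR, n = 2) or with a foxn4 morpholino (n = 2). Dexamethasone at 20 µM, given at mid-stage 11, activated the fusion proteins, and 20 caps per condition were collected 9 h later at 22 °C, near stage 18. A further 2 libraries were chromatin immunoprecipitation of Foxn4-GFP-HGR, expressed alone (n = 1) or with Multicilin (n = 1). No Cas9-only or control-morpholino caps are among these groups, and CRISPR caps can be mosaics of edited and unedited cells. Every RNA group carries Multicilin, so no RNA library shows ectoderm without it. Because the control libraries all belong to the earlier study, a difference between studies and a difference between groups cannot be told apart where the control is used. Nothing in the labels ties replicates to separate clutches, so the spread that p-values rest on may be technical.

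A motile cilium and a sperm tail share the same core, the axoneme, a ring of doublet microtubules with dynein arms, a dynein regulatory complex, radial spokes and a central pair. Many axonemal proteins were first found in testis and carry names such as spermatogenesis associated or outer dense fiber, although ciliated epithelia make them too. EF-hand motifs bind calcium, IQ motifs bind calmodulin, and armadillo and MORN repeats are binding surfaces that also occur in proteins with no place in cilia. Foxj1 is a forkhead transcription factor needed for motile cilium genes, and Foxn4 is a forkhead factor expressed in multiciliated cells.

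The 59 symbols were therefore sorted by hand by known role, mostly from mammals. This was done with earlier results of these data known, and TEX33 and SPATA18 could be placed otherwise. Contrasts between the classes are therefore descriptive. The axonemal or sperm-tail class held 24 symbols with 29 models. A class of 5 symbols covers the ciliary base and hedgehog signalling, namely ARMC9, EFCAB7, IQCB1, IQCE and SPATA7. SPATA22, TEX11, TEX12 and TEX33 were placed with meiosis or germ cells. A non-ciliary class held 20 symbols with 39 models, and 6 symbols with 7 models were left unclassified.

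Levels are given as CPM, estimated counts divided by the TMM-scaled library size in megareads, the same scale as the fold changes. A member is said to have risen or fallen where edgeR's quasi-likelihood test over all models gave an adjusted p under 0.05, and differences are on the log2 scale with their standard error. Library totals ran from 8265823 to 22041340 estimated counts. The FOXJ1 models, the target of one guide, were at 585 to 1069 CPM on scaffold 71264 in the 9 libraries and were not called lower in the foxj1 CRISPR caps (log2 difference 0.53, adjusted p = 0.091). The FOXN4 model on scaffold 44061 was at 78.9 CPM in control replicate 2 and at 388 and 510 in the other control libraries. It was not called lower with the foxn4 guide (log2 difference 0.17, adjusted p = 0.84) or the morpholino (0.54, adjusted p = 0.44). The FOXN4 model on scaffold 143664 was at 52.8 to 305 CPM in the control and 463 and 513 with the morpholino. That difference was not called (1.30, adjusted p = 0.064). The MCIDAS model on scaffold 337825 was at 128 to 717 CPM in the control. It rose with the foxj1 guide (1.65, adjusted p = 0.027) and the morpholino (1.63, adjusted p = 0.026). With the foxn4 guide its difference was 1.32 (adjusted p = 0.087), and the MCIDAS model on scaffold 52441 was not called. RNA levels do not measure edited or blocked protein, so these values do not check the labels. Markers of other cells were followed as well. Secretory markers (25 models tested) summed to 6171 to 16053 CPM in the control and 3006 to 3315 with the foxj1 guide, 3305 to 3381 with the foxn4 guide and 1641 to 2287 with the morpholino. In the same order ionocyte markers (33 models tested) summed to 841 to 1504, 637 to 684, 773 to 969 and 566 to 660 CPM. Neural markers (33 models tested) summed to 5602 to 11954, 2545 to 3978, 5382 to 6810 and 3128 to 5618 CPM, and epidermal markers (32 models tested) to 44828 to 49383, 32247 to 35252, 37694 to 38905 and 23104 to 33607 CPM. The neural sums lay below every control library with the foxj1 guide and overlapped the control range with the foxn4 guide and the morpholino. Most called neural models rose, with list medians of 1.79, 0.92 and 1.60 on the log2 scale in the 3 comparisons with the control. In these comparisons, in the same order, 7, 8 and 8 ionocyte models rose and 12, 3 and 23 fell. For epidermal models 4, 4 and 4 rose and 5, 5 and 10 fell, and for secretory models 4, 3 and 2 rose and 13, 9 and 15 fell. Of all tested models 19.8, 12.6 and 23.9% rose and 20.7, 10.7 and 21.1% fell. Epidermal calls in either direction were no more frequent than the 40.5 and 45% over all models with the foxj1 guide and the morpholino. The sums cover all models of a list, also those too low to test. Regulators of the multiciliated fate (31 models tested) summed to 4969 to 9442, 8267 to 8350, 8247 to 8352 and 9115 to 9321 CPM. The part of these lists in the results below was not tested, and in bulk caps fewer cells of a type and less RNA per cell cannot be told apart.

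Most markers of germ and sperm cells that had a model were low in the caps, and those without a model could not be seen. Of 31 sperm genes outside the axoneme only ACR, SPACA4, SPAM1 and ZPBP2 had a model, and these summed to at most 1.28 CPM in any library, with ZPBP2 at 0 in all of them. Of the 4 members placed with meiosis or germ cells 3 were nearly as low, the exception being TEX33, at 58.1 to 127 CPM in the control. TEX11, which acts in meiotic recombination, reached 0.168 CPM, TEX12, a synaptonemal complex protein, reached 0.589 CPM, and SPATA22, another recombination protein, stayed between 0.918 and 1.98 CPM. The list of germ cell genes (16 models tested) summed to 61.9 to 71.6 CPM in the control, 105 to 130 with the foxj1 guide, 90.4 to 120 with the foxn4 guide and 115 to 135 with the morpholino, so that every new library lay above the control. In these groups 5, 3 and 8 of its models rose against the control, beside 19.8, 12.6 and 23.9% of all tested models. In the same order 1, 0 and 0 of the list fell, with list medians of 0.76, 0.70 and 1.25 on the log2 scale. The DDX4 model on scaffold 157205, at 33.0 to 77.6 CPM, was its most abundant. Levels in caps differed by role. Per kilobase of model, the median control level was 136 CPM over the 29 axonemal models and 4.41 CPM over the 39 non-ciliary models.

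The highest levels per kilobase in the control belonged to 2 of the 3 SPATA18 models and both ODF3 models. SPATA18, which in mammals acts in mitochondrial quality control and was therefore placed in the non-ciliary class, had 962 CPM per kilobase on scaffold 51940 and 488 on scaffold 286644, but 231 on scaffold 33104. ODF3, an outer dense fiber protein of the sperm tail, had 571 on scaffold 12518 and 495 on scaffold 253809. TSGA10, a sperm-tail and centrosomal protein, followed with 381 CPM per kilobase. The lowest axonemal model, EFCAB12, was at 27.0 CPM per kilobase. SPATA18 made up 71.8 to 78.0% of the summed non-ciliary level in the control, 68.9 and 69.4% with the foxn4 guide, 53.0 and 55.1% with the morpholino and 39.2 and 43.1% with the foxj1 guide. The rest of the class summed to 775 to 1110 CPM in the control and 592 and 692 CPM with the foxj1 guide. With the foxn4 guide it summed to 688 and 717 CPM and with the morpholino to 731 and 780 CPM. Without SPATA18 the foxj1 and foxn4 CRISPR libraries thus overlapped.

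**Figure D1:**
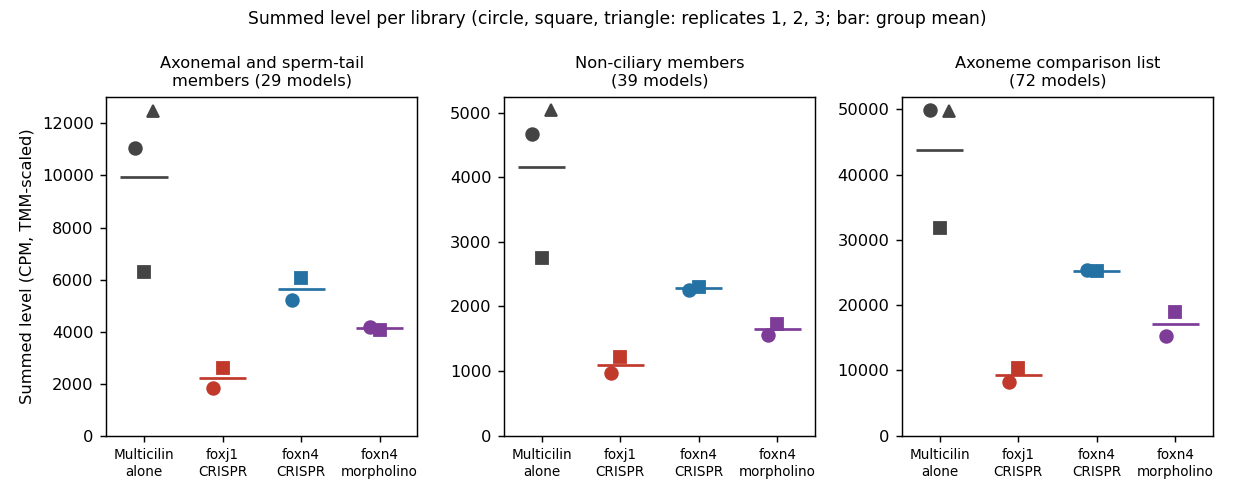
Summed level in CPM (vertical axes, from 0) in each of the 9 libraries for the 29 axonemal members, the 39 non-ciliary members and 72 models of other axonemal genes, with markers for replicates and a bar for the group mean. In every panel both foxj1 CRISPR libraries lie below all others, at 1828 and 2604 CPM for the axonemal members against 6306 to 12495 in the control. Without SPATA18 the non-ciliary sums of the foxj1 and foxn4 CRISPR libraries overlap.

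Nearly the whole axonemal class was lower in foxj1 CRISPR caps than in the re-used caps with Multicilin alone. In foxj1 CRISPR caps 28 of 29 axonemal models fell against Multicilin alone, with a median log2 difference of -2.34, and 0 rose. Over all 84 models 78 had enough reads to be tested, of which 44 fell, 5 rose and 29 were not called, with a median of -1.45. Across all 19058 tested models 20.7% fell and 19.8% rose, 40.5% in all, with a median of 0.01. No axonemal model rose at an unadjusted p under 0.05 either (edgeR), and 0 rose with DESeq2. Over all models 9526 of 19058 had an unadjusted p under 0.05 (edgeR), and DESeq2 called 3700 higher and 4448 lower. Every foxj1 CRISPR library lay below every control library for 28 of the 29 axonemal models, against 31.1% of all tested models. The count of axonemal models that fell moved when single libraries were left out, as did the counts over all models. Member medians without foxj1 CRISPR replicates 1 and 2 were -1.34 and -1.45.

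The largest drop was that of EFCAB5, an EF-hand protein on scaffold 36364 from 2317087 to 2363946. Its control levels were 597, 367 and 556 CPM and its foxj1 CRISPR levels 2.60 and 21.4 CPM. It fell by 5.40 ± 0.88 (log2, SE; adjusted p = 0.0013), and the 2 foxj1 CRISPR libraries differed from each other by more than those of most members. EFCAB6, which lies inside the doublet microtubules of mammalian axonemes, had 3 models that all fell. The least abundant of them, on scaffold 100253, went from 115, 29.8 and 131 CPM to 0.501 and 6.04 CPM, a log2 difference of -4.81 ± 1.01 (adjusted p = 0.0046). The models on scaffolds 14692 and 128184 fell by 3.28 ± 0.49 and 2.34 ± 0.32 (adjusted p = 0.00087 and 0.00056).

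MORN1, a MORN-repeat protein on scaffold 47457 from 2637681 to 2830860, went from 84.4, 74.8 and 114 CPM to 4.12 and 8.02 CPM. Its log2 difference was -3.91 ± 0.37 (adjusted p = 0.00014), with a wide gap between the groups. ODF3 on scaffold 12518, from 5676270 to 5684906, went from 1220, 728 and 1509 CPM to 67.6 and 132 CPM. Its copy on scaffold 253809, from 2324778 to 2334323, went from 1123, 593 and 1497 CPM to 64.7 and 120 CPM. Each copy fell by 3.53 (SE 0.43 and 0.49; adjusted p = 0.00034 and 0.0006), and reads shared by the copies make the split between them uncertain. No library of one group reached the range of the other for any of these models.

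Members of named axonemal complexes fell together. Of the dynein regulatory complex, IQCA1 fell by 3.50 ± 0.49, EFCAB2 by 2.14 ± 0.31 and IQCD by 2.08 ± 0.28 on the log2 scale (adjusted p = 0.0006, 0.0007 and 0.00051). EFCAB1, or calaxin, which helps dock outer dynein arms, went from 414, 340 and 639 CPM to 44.9 and 67.2 CPM and fell by 3.05 ± 0.34 (adjusted p = 0.00025). ARMC2 and ARMC3, which mouse sperm tails need, fell by 2.59 ± 0.26 and 2.61 ± 0.33 (adjusted p = 0.00017 and 0.00039). SPATA6, a protein of the sperm neck, fell by 1.93 ± 0.40 (adjusted p = 0.0043). For all of these models both foxj1 CRISPR libraries lay below every control library, as for IQCA1, which went from 495, 267 and 442 CPM to 18.7 and 52.4 CPM, and ARMC3, which went from 468, 418 and 568 CPM to 54.8 and 104 CPM. The smallest called drops in the class were those of SPATA6L, 1.20 ± 0.31, and TEX9, 0.96 ± 0.32 (adjusted p = 0.012 and 0.033), the latter from 325, 158 and 310 CPM to 127 and 144 CPM.

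TSGA10 stood apart from the class. Its control levels were 1853, 769 and 1779 CPM and its foxj1 CRISPR levels 629 and 950 CPM, so the groups overlapped. The log2 difference was -0.89 ± 0.39 and missed the threshold (adjusted p = 0.087). Without control replicate 2, the control library low for the class as a whole, all 29 axonemal models fell. Over all 18914 models tested in that fit 4155 were higher and 4095 lower, in place of 3768 and 3944 of 19058.

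**Figure D2:**
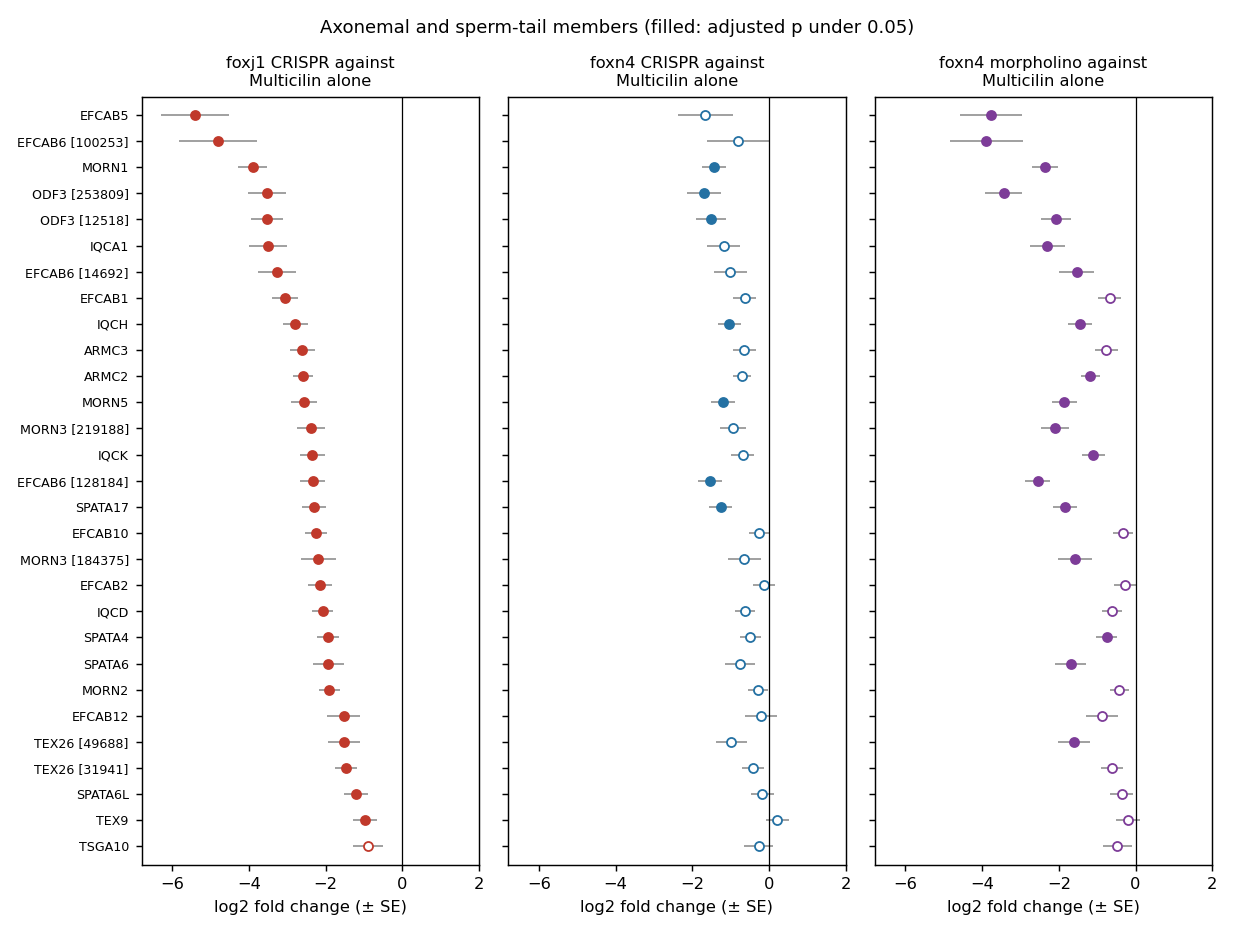
Log2 fold change with its standard error (horizontal axes) of each of the 29 axonemal models, with scaffolds in brackets, in the 3 comparisons with Multicilin alone; filled points have an adjusted p under 0.05. The filled points number 28 with the foxj1 guide, 7 with the foxn4 guide and 18 with the foxn4 morpholino, and no filled point lies above 0.

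Outside the axonemal class the other role classes split. At the ciliary base 3 of 5 fell: EFCAB7, which anchors the EVC complex of hedgehog signalling, by 1.66 ± 0.37, ARMC9, a Joubert syndrome protein, by 1.54 ± 0.33, and IQCB1, the transition zone protein NPHP5, by 1.21 ± 0.30 (adjusted p = 0.0059, 0.0046 and 0.0093). IQCE, the partner of EFCAB7, had a log2 difference of -0.69 ± 0.28 (adjusted p = 0.068) and SPATA7 of -0.19 ± 0.22 (adjusted p = 0.52). TEX33 was the 1 member of the germ cell class with a sizeable level. Its product is now also known as a ciliary microtubule inner protein, so TEX33 could equally be placed in the axonemal class. It went from 127, 58.1 and 113 CPM to 1.81 and 6.91 CPM and fell by 4.51 ± 0.61 (adjusted p = 0.00054). In the unclassified group TEX36 and SPATA20 fell, by 2.37 ± 0.82 and 1.30 ± 0.47 (adjusted p = 0.042 and 0.047).

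Of 36 tested non-ciliary models 10 fell, 5 rose and 21 were not called, with a median of -0.38, beside 20.7% lower and 19.8% higher among all models, so the count for this class was near the background. All 3 SPATA18 models fell, that on scaffold 286644 from 1259, 685 and 1736 CPM to 77.3 and 147 CPM, a log2 difference of -3.45 ± 0.45 (adjusted p = 0.00045). All 4 models of SPATA13, an exchange factor for Rac and Cdc42, fell, with log2 differences from -2.72 to -1.65. EFCAB4A, an EF-hand regulator of store-operated calcium entry, fell by 4.57 ± 0.62 (adjusted p = 0.00053) from low control levels, the highest at 10.6 CPM, to 0.221 and 0.373 CPM. ARMC6, whose function is unclear, fell by 2.12 ± 0.31 (adjusted p = 0.00076), though 61.6% of its reads were unique and it overlaps SUGP2 on the opposite strand over nearly its whole span. Without strand information, reads of overlapping genes cannot be told apart, which also touches ARMC1 on scaffold 6529, EFCAB7, EFCAB10, IQCB1, IQCD, IQCK, SPATA13 on scaffold 44494, SPATA17 and SPATA5L1.

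The members that rose with the foxj1 guide were low in level. ARMC10, a mitochondrial protein, went from 1.52, 1.97 and 1.84 CPM to 7.01 and 4.05 CPM (log2 difference 1.63 ± 0.44, adjusted p = 0.014). ARMC1, also mitochondrial, went on scaffold 230826 from 4.41, 6.46 and 6.45 CPM to 14.1 and 12.5 CPM (1.20 ± 0.30, adjusted p = 0.0097). SPATA2 on scaffold 14557, an adaptor in tumor necrosis factor receptor signalling, went from 13.4, 14.8 and 14.6 CPM to 27.1 and 25.0 CPM (0.86 ± 0.24, adjusted p = 0.017). Its 37.1% of unique reads make it uncertain, and with all matching reads counted at every model its difference was -0.80. ARMC8 on scaffold 13787, of the CTLH ubiquitin ligase, rose by 1.92 ± 0.50 (adjusted p = 0.012), and EFCAB4B on scaffold 76824 was at 0, 0 and 0.102 CPM in the control and 1.08 and 1.40 CPM in the foxj1 CRISPR caps. On library totals without TMM scaling, an alternative chosen after seeing the data, 12 members rose and 40 fell, and the median over all models moved to 0.42, with 5903 models called higher and 2642 lower in place of 3768 and 3944. Relative to that shift the axonemal drops remained, with 27 of 29 called.

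**Figure D3:**
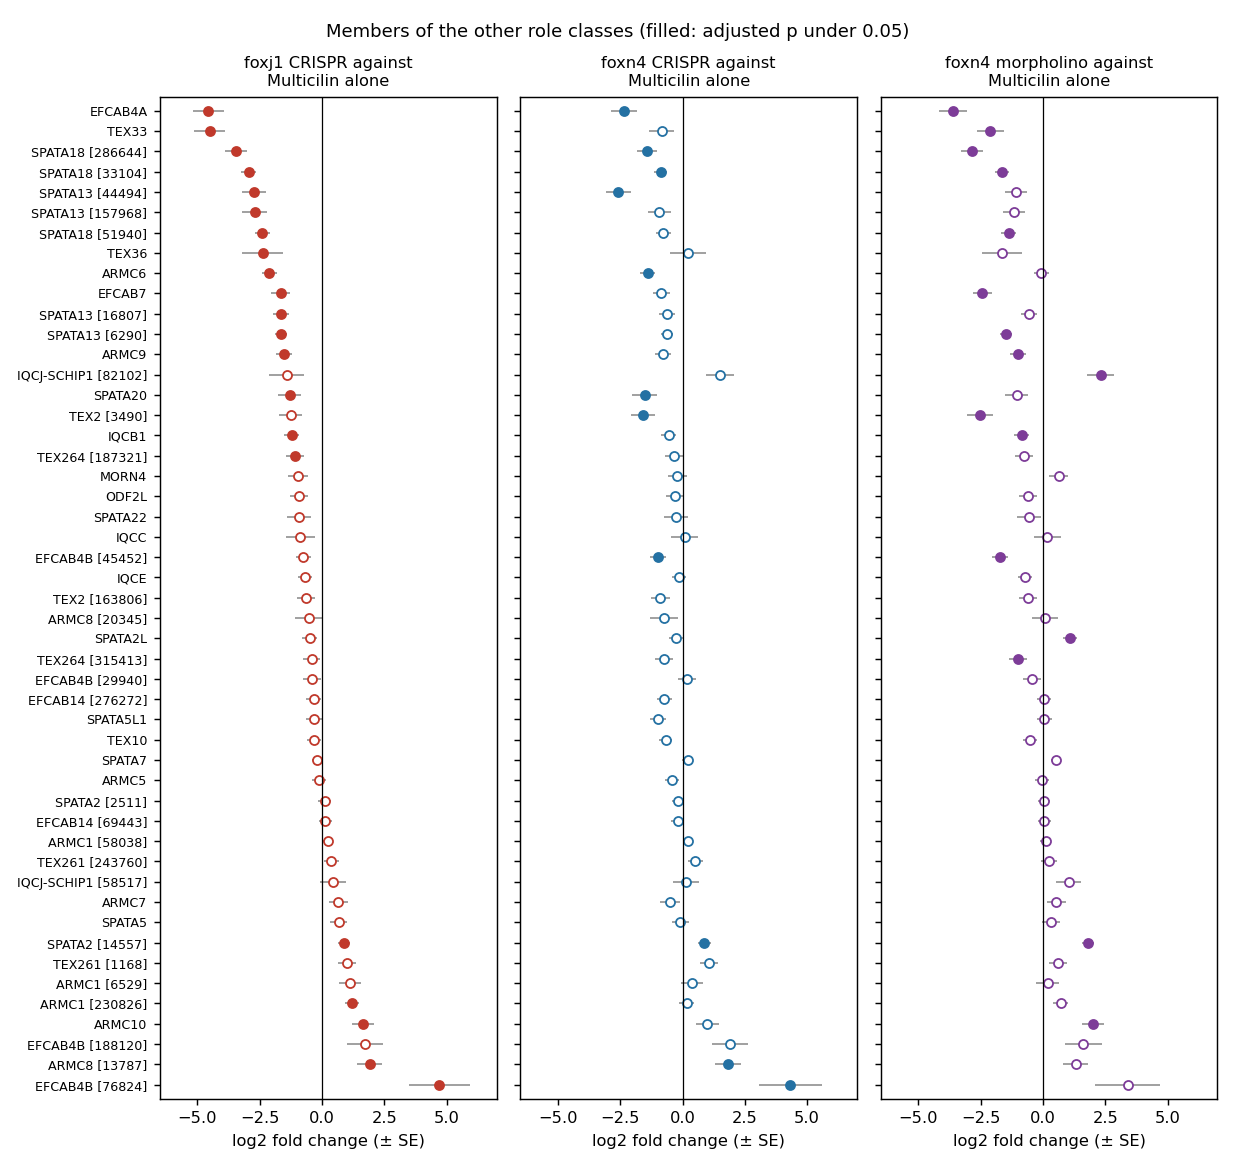
Log2 fold change with its standard error (horizontal axes) of the 49 tested models outside the axonemal class in the 3 comparisons with Multicilin alone, ordered by the foxj1 comparison; filled points have an adjusted p under 0.05. Points lie on both sides of 0, with TEX33 and the 3 SPATA18 models among the lowest in the left panel. EFCAB4B on scaffold 76824 is set against a control at or near 0, so its plotted value is no bound.

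In foxn4 CRISPR caps, compared with the same control, most members were not called. Of 78 tested models 15 fell, 3 rose and 60 were not called, with a median of -0.63, where 10.7% of all models fell and 12.6% rose, 23.2% in all. In the axonemal class 7 of 29 fell, with a median of -0.71: both ODF3 models, EFCAB6 on scaffold 128184, MORN1, SPATA17, MORN5 and IQCH. Both foxn4 CRISPR libraries lay below every control library for 16 of the 29, against 26.8% of all tested models. This was not particular to the axonemal class. Of 36 tested non-ciliary models 7 fell and 3 rose, with a median of -0.45, and 19 lay below every control library in both foxn4 CRISPR libraries. No axonemal model rose (edgeR; 0 at an unadjusted p under 0.05 and 0 with DESeq2), while DESeq2 called 11 lower and 15 were lower at an unadjusted p under 0.05. Over all models 7291 of 19058 had an unadjusted p under 0.05 (edgeR), and DESeq2 called 2463 higher and 2756 lower. At the ciliary base 0 of 5 were called, with 0 higher and 2 lower at an unadjusted p under 0.05 and 0 called by DESeq2.

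ODF3 gave the largest drop among members with a mean of at least 5 CPM over the 9 libraries. Against the control levels given above, its foxn4 CRISPR levels were 307 and 358 CPM on scaffold 253809 and 356 and 453 CPM on scaffold 12518. The log2 differences were -1.69 ± 0.45 and -1.51 ± 0.38 (adjusted p = 0.023 and 0.02), with no overlap between groups. EFCAB6 on scaffold 128184 went from 850, 449 and 809 CPM to 244 and 243 CPM (-1.53 ± 0.31, adjusted p = 0.0075), while its models on scaffolds 14692 and 100253, at 258 and 212 CPM and at 40.8 and 63.4 CPM, were not called (adjusted p = 0.12 and 0.48). MORN1 was at 30.1 and 37.6 CPM and fell by 1.43 ± 0.32 (adjusted p = 0.011). SPATA18 on scaffold 286644 was at 458 and 452 CPM, its copy on scaffold 33104 at 254 and 241 CPM, and these fell by 1.43 ± 0.40 and 0.88 ± 0.27 (adjusted p = 0.029 and 0.042). Its most abundant copy, on scaffold 51940, had a difference of -0.77 ± 0.29 (adjusted p = 0.078). ARMC6 went from 208, 131 and 238 CPM to 75.7 and 70.4 CPM (-1.40 ± 0.30, adjusted p = 0.0096), but by unique reads alone its difference was -0.57 (adjusted p = 0.19). SPATA2 on scaffold 14557 was at 30.9 and 21.8 CPM and rose by 0.88 ± 0.24 (adjusted p = 0.026), again with the opposite sign, -0.76, when all matching reads were counted at every model.

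These counts moved with single libraries. Where a library left out leaves its group with 1, that one is assumed to vary like the other groups. Dropping control replicate 2 raised the 18 calls to 31, and dropping control replicates 1 and 3 left 9 and 11. Over all models 2677 were then higher and 2371 lower, 1909 and 1506, and 1915 and 1577. Dropping either foxn4 CRISPR library left almost no member and no axonemal model called, with member medians of -0.53 and -0.63. Calls over all models dropped too but did not vanish. With the replicate number as a block the calls were 7 in place of 18, and over all 19058 models 1764 were higher and 1518 lower. For axonemal models that fell the corresponding counts were 16 without control replicate 2 and 4 without control replicate 3. Without TMM scaling 5 members rose and 10 fell, the median over all models was 0.23, and 3456 models were called higher and 1264 lower in place of 2393 and 2031.

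With the foxn4 morpholino, a second way of blocking Foxn4, most axonemal models were lower than with Multicilin alone. Of 78 tested models 30 fell, 4 rose and 44 were not called, with a median of -0.65, where 21.1% of all models fell and 23.9% rose, 45% in all. Of the 29 axonemal models 18 fell, with a median of -1.45, and 0 rose (edgeR; 0 at an unadjusted p under 0.05 and 0 with DESeq2). Over all models 10134 of 19058 had an unadjusted p under 0.05 (edgeR), and DESeq2 called 4239 higher and 4614 lower. Both morpholino libraries lay below every control library for 20 of the 29, against 28.4% of all tested models. The 18 became 24 without control replicate 2, where 4721 of all models were higher and 4287 lower. Without morpholino replicate 1 fewer axonemal models, fewer members and fewer of all models were called, with a member median of -0.72. At the ciliary base EFCAB7, ARMC9 and IQCB1 fell, and TEX33 fell by 2.11 ± 0.53 (adjusted p = 0.0095). Without TMM scaling 12 members rose and 25 fell, the median over all models was 0.52, and 6848 models were called higher and 2667 lower in place of 4553 and 4018.

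EFCAB6 on scaffold 100253 gave the largest drop, to 2.51 and 9.46 CPM from 115, 29.8 and 131 CPM (log2 difference -3.90 ± 0.95, adjusted p = 0.0082). EFCAB5 went to 20.9 and 53.1 CPM and fell by 3.77 ± 0.80 (adjusted p = 0.0043). ODF3 on scaffold 253809 went to 67.5 and 130 CPM and fell by 3.44 ± 0.49 (adjusted p = 0.00062), while the copy on scaffold 12518 stood at 227 and 318 CPM and fell by 2.08 ± 0.39 (adjusted p = 0.0025). The ODF3 copies, level with each other in the other groups, were thus apart in both morpholino libraries. EFCAB7, on scaffold 155039 from 1930699 to 2004061, went from 257, 163 and 352 CPM to 33.1 and 62.1 CPM (-2.43 ± 0.38, adjusted p = 0.001). SPATA18 on scaffold 286644 went to 147 and 196 CPM (-2.84 ± 0.43, adjusted p = 0.00088), and its other models fell by 1.65 ± 0.28 and 1.37 ± 0.29. All 3 SPATA18 models lay below the control range in both morpholino libraries.

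Several axonemal members were not called with the morpholino. EFCAB1 was at 292 and 291 CPM (-0.67 ± 0.30, adjusted p = 0.092), EFCAB2 at 225 and 187 CPM (-0.26 ± 0.28, adjusted p = 0.47), and EFCAB10 at 105 and 85.8 CPM (-0.32 ± 0.26, adjusted p = 0.33). TSGA10, at 1259 and 851 CPM, lay within the control range (-0.47 ± 0.38, adjusted p = 0.33). Members that rose were SPATA2 on scaffold 14557, at 55.5 and 44.8 CPM (1.81 ± 0.24, adjusted p = 0.00044), SPATA2L, its paralog, at 25.8 and 21.9 CPM (1.08 ± 0.28, adjusted p = 0.012), ARMC10 at 8.25 and 6.11 CPM (adjusted p = 0.0048) and the IQCJ-SCHIP1 model on scaffold 82102 at 3.52 and 2.57 CPM (2.32 ± 0.54, adjusted p = 0.0067). Only 14.8% of SPATA2L reads were unique, which makes its level uncertain, and with all matching reads counted at every model the SPATA2 difference was 0.30 (adjusted p = 0.22).

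Comparisons among the new groups set no control library against another, but the control shares in the filter, the TMM scaling and the estimate of spread. The foxn4 CRISPR caps had higher levels than the foxj1 CRISPR caps in 16 of 78 tested members, with 0 lower and a median of 0.78, where 1.45% of all models were called, 1.43% higher and 0.021% lower. At an unadjusted p under 0.05, 38 members were higher and 2 lower, and DESeq2 called 28 higher and 0 lower. Over all models 2165 of 19058 had an unadjusted p under 0.05 (edgeR), and DESeq2 called 698 higher and 36 lower. Of the 16, 13 were axonemal (ARMC2, ARMC3, EFCAB1, EFCAB2, EFCAB10, IQCA1, IQCD, IQCH, IQCK, MORN1, MORN2, ODF3 on scaffold 12518 and SPATA4), and the others were TEX33 and 2 SPATA18 models. Both foxn4 CRISPR libraries lay above both foxj1 CRISPR libraries for all 29 axonemal models, against 27% of all tested models. TEX33, at 42.3 and 68.8 CPM against 1.81 and 6.91, gave a log2 difference of 3.67 ± 0.61 (adjusted p = 0.022), and MORN1, EFCAB1 and IQCA1 gave 2.48 ± 0.36, 2.42 ± 0.34 and 2.32 ± 0.48 (adjusted p = 0.017, 0.017 and 0.045). The 16 calls became 28 without control replicate 2, which enters through the shared estimate of spread. Over all models 589 were then higher and 25 lower. With the replicate number as a block the 16 calls became 0, and 0 of all 19058 models were called either. Under that block 41 members and 2167 of all models had an unadjusted p under 0.05 (edgeR). Without foxj1 CRISPR replicate 1 or either foxn4 CRISPR library the calls were lost, as were nearly all calls over all models. Member medians were then 0.75, 0.79 and 0.92. Fewer calls remained without foxj1 CRISPR replicate 2 or either morpholino library, among members and over all models.

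The morpholino caps were likewise above the foxj1 CRISPR caps in 17 of 78 members, with 0 lower and a median of 0.60, where 7.4% of all models were called, 4.7% higher and 2.7% lower. At an unadjusted p under 0.05, 29 were higher and 2 lower, and DESeq2 called 22 higher and 0 lower. Over all models 4605 of 19058 had an unadjusted p under 0.05 (edgeR), and DESeq2 called 1289 higher and 1033 lower. Axonemal models made up 11 of the 17, and TEX33 (2.40 ± 0.59, adjusted p = 0.037), EFCAB1 (2.38 ± 0.34, adjusted p = 0.0047), ARMC6 (2.06 ± 0.32, adjusted p = 0.0068) and EFCAB10 (1.93 ± 0.30, adjusted p = 0.0061) led among members with a mean of at least 5 CPM. The ARMC6 difference was 0.99 (adjusted p = 0.09) by unique reads. The 17 calls were lost without foxj1 CRISPR replicate 1, and fewer remained without any other library of the new groups. Calls over all models dropped in each of these fits too. Member medians were 0.47 and 0.76 without foxj1 CRISPR replicates 1 and 2, and 0.55 and 0.57 without morpholino replicates 1 and 2.

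Morpholino and guide against foxn4 differed in 3 members, with 2 higher and 1 lower with the morpholino and a median of -0.28, where 5.47% of all models were called, 2.65% higher and 2.82% lower. That share of 3 in 78 is near the background. EFCAB7 was at 33.1 and 62.1 CPM with the morpholino and 140 and 147 CPM with the guide (-1.59 ± 0.39, adjusted p = 0.044). ARMC6 was at 151 and 218 against 75.7 and 70.4 CPM (1.34 ± 0.32, adjusted p = 0.039), and SPATA2L at 25.8 and 21.9 against 7.19 and 11.7 CPM (1.32 ± 0.32, adjusted p = 0.044). By unique reads the ARMC6 and SPATA2L differences were 0.24 and 0.65 and were not called (adjusted p = 0.68 and 0.36). No axonemal model was called between morpholino and guide (edgeR), while 0 were higher and 8 lower at an unadjusted p under 0.05, and DESeq2 called 0 higher and 3 lower. Over all models 4509 of 19058 had an unadjusted p under 0.05 (edgeR), and DESeq2 called 863 higher and 1273 lower. The 3 calls became 10 without control replicate 2, 2 without control replicate 3, 1 without morpholino replicate 2 and 0 without any other single library (edgeR; 8 to 21 at an unadjusted p under 0.05).

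A list of other axonemal genes, such as dynein heavy chains and radial spoke proteins, had lower levels in the same caps. Of its 91 symbols 61 had models, 72 in all. Of these 68 fell with the foxj1 guide, 20 with the foxn4 guide and 59 with the morpholino, with medians of -2.17, -0.78 and -1.24. Of all tested models 20.7, 10.7 and 21.1% fell. The medians of the 29 axonemal members were -2.34, -0.71 and -1.45, and those of all 78 tested members -1.45, -0.63 and -0.65. The summed level of the list was 31819 to 49847 CPM in the control, 8202 to 10351 with the foxj1 guide, 25166 to 25419 with the foxn4 guide and 15202 to 18890 with the morpholino. No difference between the members and this list was tested.

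Several symbols had models that did not share a call. Of 15 symbols with 2 or more tested models, the models differed in call for 5 with the foxj1 guide (ARMC1, ARMC8, EFCAB4B, SPATA2 and TEX264) and for 7 in each foxn4 comparison. With the foxn4 guide these were ARMC8, EFCAB4B, EFCAB6, SPATA13, SPATA18, SPATA2 and TEX2, and with the morpholino EFCAB4B, IQCJ-SCHIP1, SPATA13, SPATA2, TEX2, TEX26 and TEX264. EFCAB4B, a regulator of store-operated calcium entry, is an example. Its most abundant model on scaffold 45452, at 264, 173 and 275 CPM in the control, had 77.2 and 67.6 CPM with the morpholino and fell by 1.71 ± 0.33 (adjusted p = 0.0026), while the model on scaffold 29940 had a difference of -0.43 ± 0.36 (adjusted p = 0.34). SPATA2 on scaffold 2511 stayed between 10.7 and 14.9 CPM in all 9 libraries and was called in none of the comparisons, unlike its copy on scaffold 14557. A call in one copy and not in another does not show that the copies differ, and their difference was not tested.

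**Figure D4:**
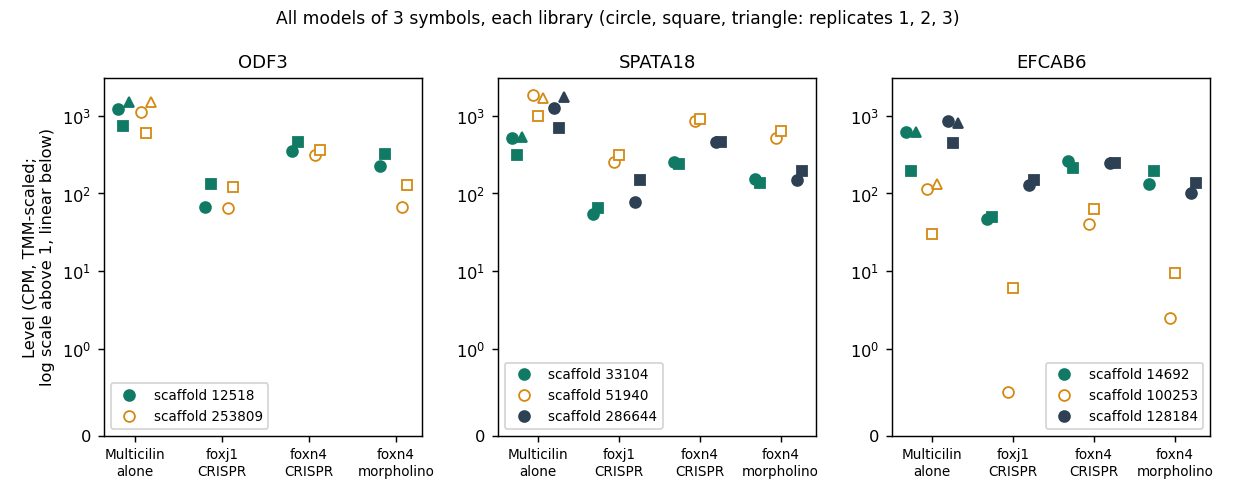
Level in CPM (vertical axes, log scale above 1 and linear below) of every ODF3, SPATA18 and EFCAB6 model in each library. The ODF3 models lie close together in the control, foxj1 CRISPR and foxn4 CRISPR libraries, while in the morpholino libraries the model on scaffold 253809, at 67.5 and 130 CPM, is below that on scaffold 12518, at 227 and 318 CPM.

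Foxn4 peaks were common at member starts. In caps with Foxn4 alone, 61 of 84 models had a peak whose centre lay within 1000 bp of the model start, 72.6%, against 53.3% of all models. With Multicilin added the count was 53, or 63.1%, against 31.4%, and 52 members had a peak in both libraries, 61.9% against 30.3%. Among models at 5 CPM or more the share with a peak in both was 45.8%, against 73.0% of members at that level. Each condition had 1 library, so there is no replicate check. The list lengths, 65258 and 29673 peaks, differed, and so did depth and enrichment. An effect of Multicilin on list length cannot be told apart from these. Of axonemal members 26 of 29 had a peak in both libraries, 89.7%, beside 83.3% of the other axonemal genes, and of non-ciliary members 17 of 39, 43.6%. The median distance from the start was 60 bp with Foxn4 alone and 59 bp with Multicilin, and 50 of 61 and 43 of 53 centres were within 200 bp.

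The highest peaks stood at both axonemal and other members, by the authors' own depth-normalized tag values, used only within each list. With Foxn4 alone the highest was at SPATA5, an ATPase of ribosome maturation, with 307.3 tags on scaffold 88765 from 2571172 to 2571512, over the model start at 2571358. SPATA5 had 3.25 to 7.65 CPM in the 9 libraries and was called in no comparison. SPATA18 on scaffold 33104 was next, with 253.1 tags, and first with Multicilin, with 197.5 tags, at 784 and 777 bp into the model. ODF3 on scaffold 12518 had 188.1 and 144.5 tags at 27 bp before and 25 bp after its start, and its copy on scaffold 253809 had 96.1 and 109.9 tags. MORN5 had 189.5 and 142.5 tags, TEX26 on scaffold 49688 had 203.0 and 97.7 tags, and SPATA6L 93.4 and 142.5 tags. EFCAB6 on scaffold 14692 had 211.2 and 93.7 tags. The lowest member peak with Foxn4 alone, 13.5 tags, was at EFCAB6 on scaffold 100253, which had 36.6 tags with Multicilin. With Multicilin the lowest, 16.3 tags, was at ARMC1 on scaffold 58038.

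**Figure D5:**
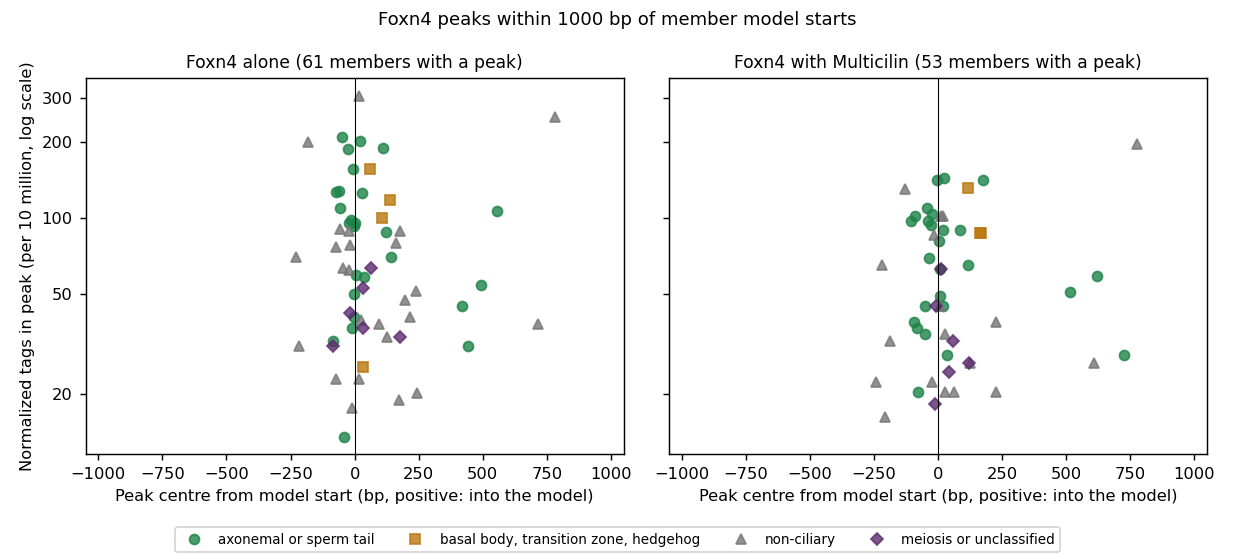
Normalized tags of the highest Foxn4 peak near each member start (vertical axis, log scale) against the distance of the peak centre from the start in bp (horizontal axis), for Foxn4 alone and Foxn4 with Multicilin, by role class. Most of the 61 and 53 peaks lie within 200 bp of the start, and axonemal and non-ciliary members overlap in peak height.

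Peaks and fold changes did not line up one to one. Of the 52 members with a peak in both libraries, 10 fell and 1 rose with the foxn4 guide, where 10.7% of all models fell and 12.6% rose, and 22 fell and 2 rose with the morpholino, where 21.1% fell and 23.9% rose. Of the 22 members with no peak in either library 16 were tested, and 5 fell and 1 rose with the guide, and 6 fell and 1 rose with the morpholino. The 3 axonemal members without a near peak were EFCAB5, SPATA17 and TSGA10, whose nearest centres lay 2934, 10680 and 3210 bp away with Foxn4 alone. SPATA17 fell in all 3 comparisons with the control, EFCAB5 fell with the foxj1 guide and the morpholino, and TSGA10 in none. EFCAB7, lower with the morpholino than with the guide, had its nearest Foxn4 peak 20375 bp from its start. With the foxj1 guide, in caps where foxn4 was not targeted, 34 of the 52 fell and 3 rose, and of the 16 tested members with no peak 8 fell and 1 rose, where 20.7% of all models fell and 19.8% rose. No difference in these counts between members with and without a peak was tested.

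The authors' deposited tables gave fewer calls. Their fold changes are mean B over mean A without saying which group is A, and 98.5 to 99.95% of models past 1 on the log2 scale had the opposite sign to the differences here, so their signs were turned. That orientation rests on the present results, and the shared direction is no independent check of them. In the authors' deposited table for foxj1, 38 of 83 listed members were lower and 1 higher at an adjusted p under 0.05, and all of these were called here, with the same sign once turned. In the authors' deposited table for the morpholino 21 were lower and 3 higher (ARMC10, IQCJ-SCHIP1 on scaffold 82102 and SPATA2 on scaffold 14557), again all called here with the same sign once turned. In the authors' deposited table for the foxn4 guide 4 of 84 were lower, namely ARMC6, EFCAB5, MORN1 and SPATA13 on scaffold 44494, and EFCAB5, with a log2 difference of -1.71 after the turn, was not called here (-1.66 ± 0.72, adjusted p = 0.12).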

How the data were processed

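RNA was measured in 9 libraries (Multicilin alone 3; foxj1 CRISPR, foxn4 CRISPR and foxn4 morpholino 2 each) and Foxn4 binding in 2. Poly-A libraries were not stranded, per the labels' protocols. The authors deposited, for each gene model and library, estimated counts, in which eXpress shares out multiply matching reads, and whole-number counts of all and of uniquely matching reads, per the file headers. STAR, eXpress, DESeq, Bowtie2 and HOMER are named in the submitters' processing notes; the sources used here give no versions for them. Mayball gene models and X. laevis genome 7.1 are named in the series' design text. The authors' deposited comparison tables give a log2 fold change and an adjusted p-value. The authors' peak lists give a signal, depth-normalized tags, and a fold ratio over input, called in each library alone at a false discovery rate of 0.001 and 4-fold over input, per the file headers, from 7387992 tags (Foxn4 alone) and 4911853 tags (with Multicilin). The further 6 input libraries were not analysed here. Their labels call them re-used histone, foxj1-FLAG, rad21 and myb-GFP inputs, the rad21 input at 3 h, and none is labelled as a Foxn4 input.

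Estimated counts were rounded and fitted with edgeR 4.0.16 (R 4.3.3; TMM, filterByExpr by group, quasi-likelihood test, group as the only term, all 9 libraries, 5 residual degrees of freedom, Benjamini-Hochberg adjustment over 19058 models, threshold 0.05). CPM used TMM-scaled library sizes, a choice made after the factors were seen; these were 0.791 to 0.916 in the control and 1.00 to 1.19 elsewhere. SE is the log2 difference over the square root of F. On data simulated for foxj1 CRISPR against control with 18714 models, 79% of 4-fold and 15% of 2-fold changes were recovered. The simulation changed 200 models, only in the foxj1 CRISPR group and at a single fixed spread. In the data 7712 of 19058 models were called in that comparison, so these rates do not give the power here. A peak was assigned to a member where its centre lay within 1000 bp of the model start.

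Members, roles and lists were chosen with earlier results of these data known. Full values were given to the 6 lowest and 6 highest called differences against the control at a mean of at least 5 CPM, up to 4 each way among the new groups, and the most abundant model of each name family; other members named were called members, copies with different calls or members near the threshold, and the ODF3 copies were compared after their values were seen. Alternatives were RLE factors, no filter, DESeq2 1.42.0, other read assignments, sums by symbol, 2 groups only, a replicate block, each library left out, library totals, and other peak windows and thresholds.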

Additional observations from a re-analysis of the deposited data

Results flagged for a closer look

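The foxn4 morpholino and the foxn4 guide are directed at the same gene. Of the 78 tested members 3 differed between them when the difference itself was tested with edgeR's quasi-likelihood test. Across all tested models 5.47% were called, so this count is no higher than the background. Without control replicate 1 the calls became 0, while 449 of all models were higher and 537 lower. ARMC6 was higher with the morpholino by 1.34 on the log2 scale (adjusted p = 0.039), in 2 of 2 libraries. EFCAB7 was lower by a log2 difference of -1.59 (adjusted p = 0.044), in 2 of 2 libraries, and SPATA2L was higher by 1.32 (adjusted p = 0.044), in 2 of 2 libraries. By unique reads EFCAB7 kept its call (-1.53, adjusted p = 0.042), while ARMC6 and SPATA2L did not (0.24 and 0.65, adjusted p = 0.68 and 0.36). With the replicate number as a block none of the 78 tested members was called between these groups, while 349 of all models were higher and 488 lower.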

How the results depend on the processing

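With 2 libraries in most groups, the number of members called moved with single libraries, as did the number called over all models. Leaving out 1 library at a time gave 34 to 57 calls for the foxj1 guide against control, 0 to 31 for the foxn4 guide, 22 to 45 for the morpholino, 0 to 28 for foxn4 against foxj1 guide, 0 to 10 for morpholino against foxn4 guide and 0 to 23 for morpholino against foxj1 guide. Counting all matching reads at every model gave 30 calls for the foxn4 guide, 55 for the morpholino and 16 for morpholino against foxn4 guide. Of 20385 models, 3940 were then higher and 3104 lower, 6185 and 5290, and 2062 and 1489. DESeq2 gave 28 calls for foxn4 against foxj1 guide and 9 for morpholino against foxn4 guide, fits of the 2 groups alone 27 and 9, and no filter 5 for the latter. Over all models DESeq2 called 698 higher and 36 lower, and 863 and 1273. Fits of the 2 groups alone called 637 and 68, and 538 and 701, and no filter 534 and 724 for the latter. The labels number replicates alike across groups, but do not say that a number marks a shared clutch or day. Deviations of same-numbered libraries correlated at 0.51 between the CRISPR groups, 0.17 between foxj1 guide and morpholino, 0.09 between foxn4 guide and morpholino and -0.14 to -0.017 with the control. With 2 libraries per new group this does not settle whether they are pairs. A replicate block gave 7 calls for the foxn4 guide and 0 for both foxn4 against foxj1 guide and morpholino against foxn4 guide (41 and 17 at an unadjusted p under 0.05, edgeR), and 13 calls of named members were lost under it. Over all models the block called 1764 higher and 1518 lower, 0 and 0, and 349 and 488. SPATA2 on scaffold 14557 reversed with all matching reads (-0.80 and -0.76), TEX9 with the foxn4 guide without control replicate 2 (-0.039, in a range up to 0.41 without control replicate 1), and on library totals TSGA10 (0.027 with the foxn4 guide, 0.0061 with the morpholino) and TEX9 (0.27, morpholino). The cause was not tested. Of 486 values of named members with a library left out 398 kept direction and side of the threshold, 77 lost and 10 gained a call and 1 reversed; of 540 under other settings 493, 30, 12 and 5 did. Members with a peak numbered 45 to 68 (Foxn4 alone) and 39 to 57 (with Multicilin) under other windows and thresholds. These are 53.6 to 81.0% and 46.4 to 67.9% of members, beside 37.9 to 65.6% and 19.0 to 40.8% of all models. Low counts limit members under about 5 CPM, and 6 of 84 were too low to test.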

Other observations

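The ODF3 copies kept a nearly constant ratio in 7 of the 9 libraries, with the model on scaffold 253809 lower than that on scaffold 12518 by a log2 ratio of -0.01 to -0.34. In the morpholino libraries the ratio was -1.75 and -1.29. The copies share reads, but by uniquely matching reads alone the ratio was -2.02 and -1.60 in the morpholino libraries. In the other 7 libraries it was -0.43 to 0.01 by unique reads. The pattern was noticed after the values were seen and was not tested.

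Of the 84 members 6 (7.14%) were models assembled from testis RNA, against 1.62% of all 24383 models.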
